A study of Mus musculus with 48 samples.

Results

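The genes described here encode the enzymes and carriers with which the liver makes, stores, releases and takes up sugar. They are *Pck1*, *G6pc*, *Fbp1* and *Pcx* of gluconeogenesis, *Slc2a2* and *Gckr* of glucose transport and phosphorylation, *Gys2* and *Pygl* of glycogen, and *Khk* of fructose. They were found by their gene name on the array, which gave 9 genes and 10 probes (2 for *Khk*) of the 22029 gene names and 33323 probes tested. All 10 probes were well above background on all 48 arrays, and no spot of any probe was saturated.

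RNA came from the livers of 48 male mice aged 20 weeks, 8 in each of 6 groups, hybridised to 1-colour Agilent arrays. WT mice were C57BL/6J animals bought from a breeder and acclimated before use. Pparα hep-/- mice carried floxed Pparα and an albumin-Cre transgene, which acts in hepatocytes, so that other cells kept the gene. Pparα-/- mice lacked Pparα in every cell and, like the Pparα hep-/- mice, were bred in-house, so that genotype and source of the mice cannot be told apart against WT. Each genotype was fed a control diet (CTRL) or a lard-based high fat diet (HFD) with 60% fat, for 12 weeks by the labels (the study's text gives a shorter time). The CTRL diet held more carbohydrate, and the methods give sucrose the same share of calories in both. All mice were housed at thermoneutrality and killed in the fed state, so that the values below are not those of a fasted liver.

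Gluconeogenesis builds glucose from lactate, amino acids and glycerol. Pyruvate carboxylase (*Pcx*) turns pyruvate into oxaloacetate in mitochondria, phosphoenolpyruvate carboxykinase (*Pck1*) turns this into phosphoenolpyruvate, fructose-1,6-bisphosphatase (*Fbp1*) reverses the committed step of glycolysis, and glucose-6-phosphatase (*G6pc*) frees the glucose. Glucose crosses the hepatocyte membrane through GLUT2 (*Slc2a2*), is trapped by phosphorylation, a step on which the regulatory protein GKRP (*Gckr*) acts, and is stored by liver glycogen synthase (*Gys2*) and released by liver glycogen phosphorylase (*Pygl*). Ketohexokinase (*Khk*) is the first enzyme of fructose use. PPARα is a nuclear receptor for fatty acids that drives fat oxidation and ketone formation in the fasted liver. Insulin lowers *Pck1* and *G6pc* transcription, glucagon acting through cAMP raises it, and the carbohydrate sensor ChREBP acts on several genes of glucose and fructose use.

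Probe values are log2 intensities after quantile normalization. A change is the fitted log2 difference between 2 groups with its SE, and a gene is called where the Benjamini-Hochberg adjusted p of limma over all 33323 probes was at most 0.05. Arrays were weighted by how well they agree within their group, so that a fitted change can differ from the distance between group medians. The arrays were washed in 2 batches of 24, and the change within each is given where it bears on a result. The weights ran from 0.189 to 2.53, and 5 arrays fell under 0.5, namely Pparα hep-/- CTRL mouse 1 (0.189), WT CTRL mouse 6 (0.208), WT HFD mice 2 (0.343) and 6 (0.372), and Pparα-/- CTRL mouse 3 (0.419). Pparα hep-/- CTRL mouse 1 and WT CTRL mouse 6 each held the lowest value of their group for 6 of the 9 genes. WT HFD mice 1 (weight 0.537) and 2 each held one of the 2 lowest values of their group for 7 of the 9 genes, and they also had the lowest hepatocyte markers there, with a mean log2 level over these markers of 15.64 and 15.49 beside 16.05 to 16.34 in the other 6 WT HFD mice. Without these 2 mice every call among the 9 genes on the HFD and between HFD effects was kept, and 4 were added, which are given below. The targeted gene was measured by 2 *Ppara* probes, neither known here to lie in the deleted part. On the first, the 8 WT CTRL mice ranged from 14.03 to 15.07 (median 14.54), Pparα hep-/- CTRL mice from 13.27 to 14.28 (14.11) and Pparα-/- CTRL mice from 13.53 to 14.09 (13.92), and on the HFD the ranges were 14.65 to 15.24 (15.07), 14.11 to 14.55 (14.24) and 13.83 to 14.27 (14.03). On the second, the CTRL ranges were 12.36 to 13.24 (12.86), 11.77 to 12.95 (12.80) and 11.36 to 11.87 (11.81), and the HFD ranges 12.86 to 13.51 (13.36), 12.50 to 12.79 (12.69) and 11.89 to 12.27 (12.08). Pparα-/- mice were lower than WT on both probes and diets (adjusted p from 5.27e-13 to 1.1e-06 on CTRL), and Pparα hep-/- mice on CTRL were lower on the first probe (0.000887) but not called on the second (0.454). On the HFD, Pparα hep-/- mice were below WT on both, by -0.85 (5.12e-10) and -0.68 (3.34e-08).

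Sequence just before the gene start was read from the RefSeq promoter table (build GRCm38.p6) for 8 of the 9 genes, with 9 start sites because *Pcx* has 2. *Gys2* had no match in the table. Shown are the 250 bases before the start of the 4 genes on which the diet and genotype results below turn, *Pck1* because it is the textbook hormone target that was not called here, *G6pc* and *Pcx* because they moved on the HFD, and *Khk* because it stood high in Pparα hep-/- mice. Capitals mark matches, on either strand, to ACGTCA (part of a cAMP response element), AGGTCA (the hexamer of nuclear receptors), TGTTTAC or TGTTTTG (forkhead sites) or CACGTG (an E-box), and the only other motif searched was the repeat that PPARα with RXR can bind, which is 2 copies of AGGTCA in a row with 1 base of any kind between them, so that it contains AGGTCA.
*Pck1*, chr2:173152823-173153072, plus strand: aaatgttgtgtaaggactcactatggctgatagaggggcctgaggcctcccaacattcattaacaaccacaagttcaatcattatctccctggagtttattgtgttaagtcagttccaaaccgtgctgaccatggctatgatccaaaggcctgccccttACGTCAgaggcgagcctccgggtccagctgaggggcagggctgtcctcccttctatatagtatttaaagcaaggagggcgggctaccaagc
*G6pc*, chr11:101367466-101367715, plus strand: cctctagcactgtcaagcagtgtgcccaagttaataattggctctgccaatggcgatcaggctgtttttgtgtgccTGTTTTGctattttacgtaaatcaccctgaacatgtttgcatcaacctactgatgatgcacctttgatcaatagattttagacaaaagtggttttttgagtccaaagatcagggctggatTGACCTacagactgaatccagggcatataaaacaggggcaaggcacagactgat
*Pcx*, first start, chr19:4510222-4510471, plus strand: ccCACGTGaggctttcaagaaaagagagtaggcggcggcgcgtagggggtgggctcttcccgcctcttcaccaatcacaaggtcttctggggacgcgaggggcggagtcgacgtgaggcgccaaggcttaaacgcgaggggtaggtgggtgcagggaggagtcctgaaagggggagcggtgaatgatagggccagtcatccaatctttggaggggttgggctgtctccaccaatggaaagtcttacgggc
*Khk*, chr5:30921309-30921558, plus strand: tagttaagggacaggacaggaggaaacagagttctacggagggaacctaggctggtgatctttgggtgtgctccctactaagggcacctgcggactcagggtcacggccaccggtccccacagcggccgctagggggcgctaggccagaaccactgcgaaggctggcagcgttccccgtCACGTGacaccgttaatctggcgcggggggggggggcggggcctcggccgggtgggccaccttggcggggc

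*Pck1* held ACGTCA with its first base 91 bases before the start, *G6pc* held TGTTTTG at 174 and AGGTCA on the reverse strand (printed as TGACCT) at 54, and the first *Pcx* start and *Khk* each held CACGTG, at 248 and 71. Of the windows not shown, *Gckr* held TGTTTTG at 83, *Slc2a2* AGGTCA at 21 and *Pygl* AGGTCA on the reverse strand at 128, while *Fbp1* and the second *Pcx* start held none of these letters. The spaced repeat was in none of the 9 windows and in 0.0335% of all 32841 windows in the table. Single matches were common among those 32841 windows, with AGGTCA in 14% of them, ACGTCA in 6.47%, CACGTG in 6.02%, TGTTTTG in 5.56% and TGTTTAC in 3.17%, so that a match here is a description and no sign of a site in use.

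**Figure D1:**
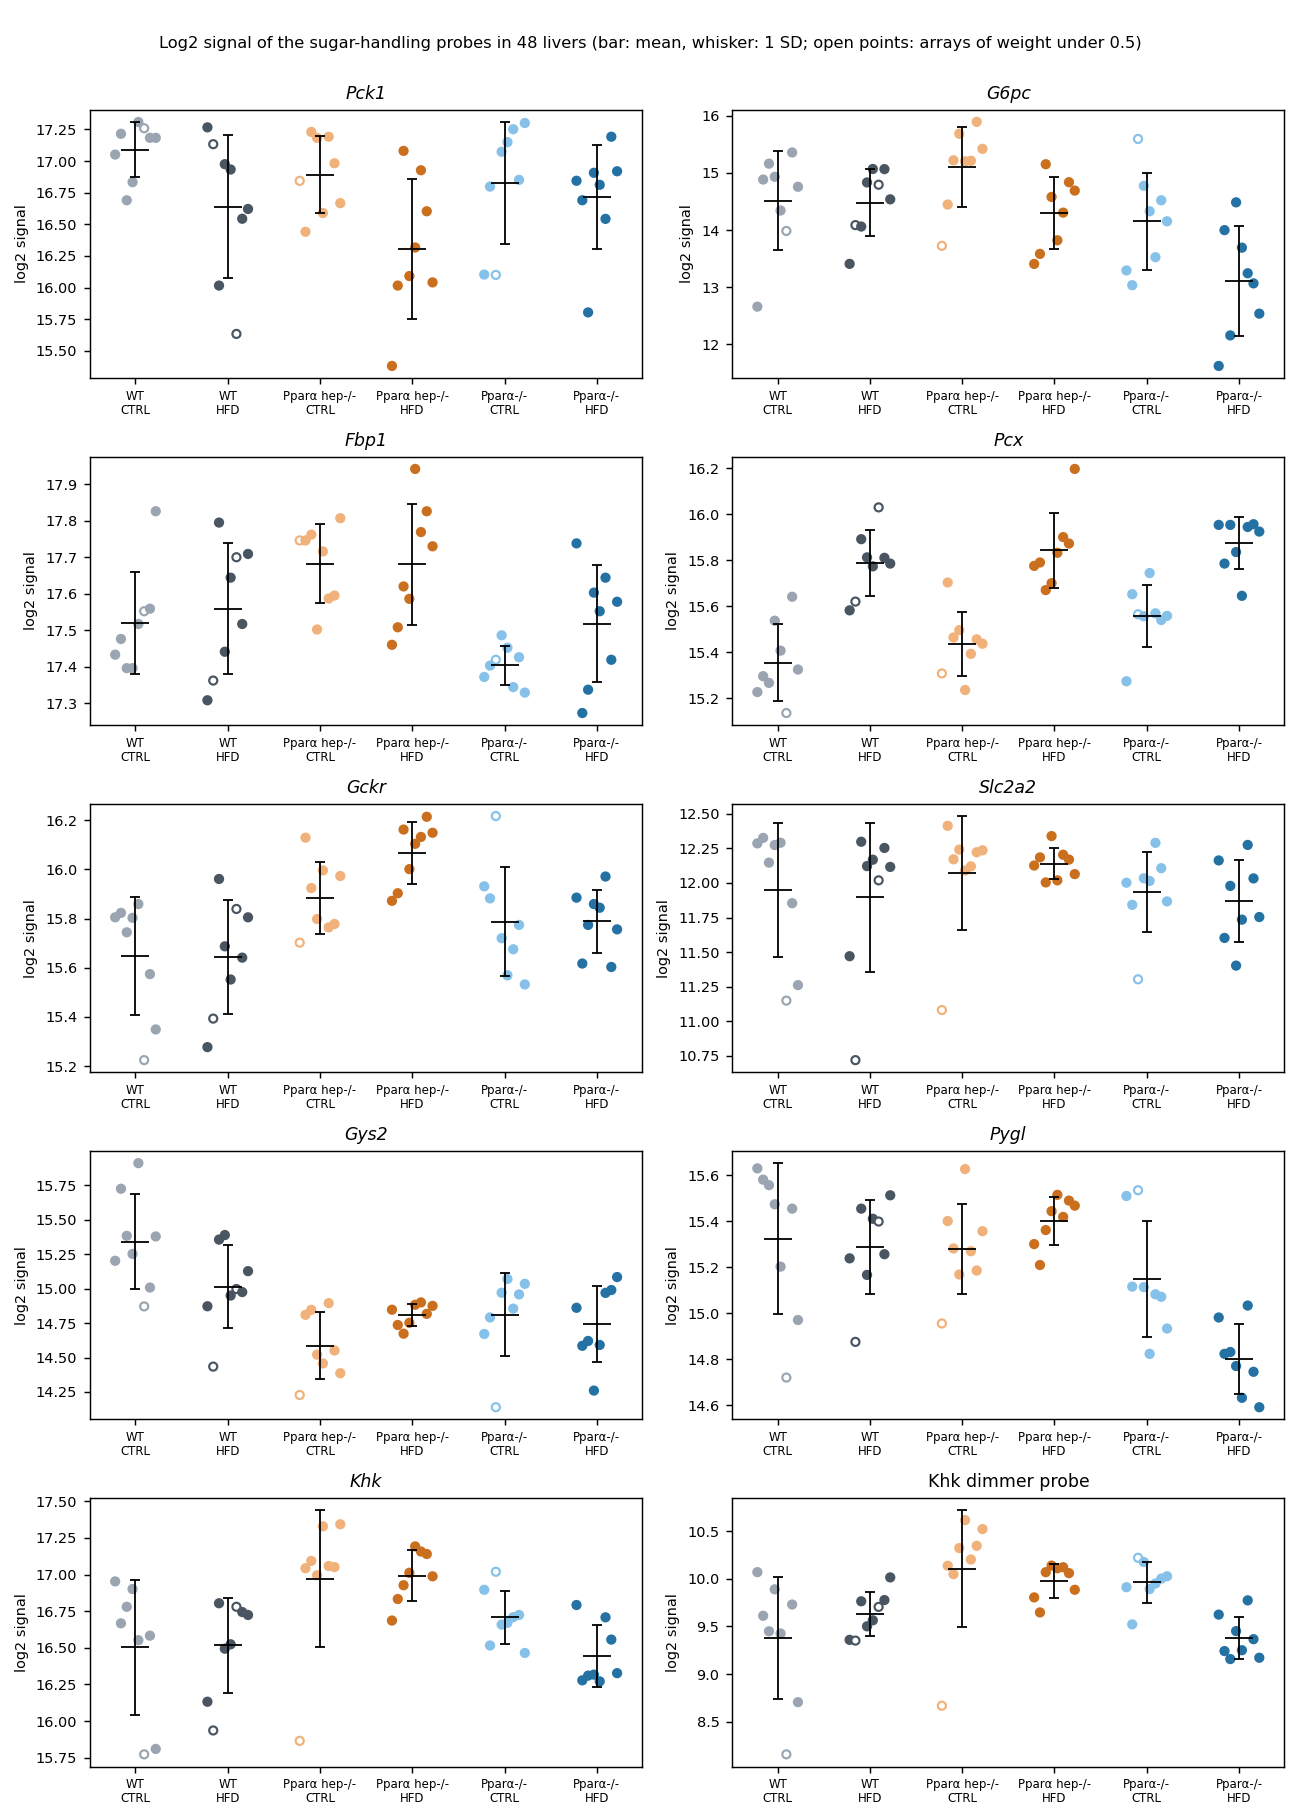
Normalized log2 intensity of the 10 probes (1 panel each, y axes set by panel) in every mouse (points), by genotype and diet, with bars at the group means. *Pcx* sits higher on the HFD in all 3 genotypes, *G6pc* lies lowest in Pparα-/- HFD mice, and *Gys2* lies highest in WT CTRL mice.

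The diet moved few of the 9 genes. On the HFD, 1 gene was called in WT mice (*Pcx*, higher), where 19.5% of all genes were called. In Pparα hep-/- mice 2 were called (*Pcx* higher, *G6pc* lower), against 22.5% of all genes. In Pparα-/- mice 3 were called (*Pcx* higher, *G6pc* and *Pygl* lower), against 26.4%. The shares of the members, 11.1%, 22.2% and 33.3%, were thus near those of all genes, and the median change of the 9 genes was -0.03, 0.06 and -0.14 beside -0.001, -0.015 and -0.011 over all genes.

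Between genotypes, the 2 deletions on the HFD gave the highest count of calls, 5. On CTRL, 3 of 9 genes were called between Pparα hep-/- and WT mice (*G6pc* and *Khk* higher, *Gys2* lower; 25.2% of all genes), 2 between Pparα-/- and WT mice (*Gys2* and *Pygl* lower; 35.3%), and 3 between Pparα-/- and Pparα hep-/- mice (*G6pc*, *Fbp1* and *Khk*, all lower in Pparα-/-; 26.6%, and 13.4% lower). On the HFD, 2 were called between Pparα hep-/- and WT mice (*Gckr* and *Khk* higher; 28.6%), 3 between Pparα-/- and WT mice (*G6pc*, *Gys2* and *Pygl* lower; 47.8%), and 5 between Pparα-/- and Pparα hep-/- mice (*G6pc*, *Fbp1*, *Gckr*, *Pygl* and *Khk*, all lower in Pparα-/-; 31.9%, and 15% lower). The last had the widest gap between the share of members called (55.6%) and that of all genes. These comparisons share groups, so they are not separate pieces of evidence.

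Whether the diet acted differently between genotypes was asked with the difference of the HFD effects. Pparα hep-/- minus WT gave 1 call (*Gys2*, higher; 11.2% of all genes), Pparα-/- minus Pparα hep-/- gave 1 (*Pygl*, lower; 3.93%), and Pparα-/- minus WT gave 0 by limma (15.5%). In the last, 2 genes, *G6pc* and *Pygl*, had an unadjusted p under 0.05, and the fit on the scanner's processed signals called 1, *Fbp1*. The 15.5% belongs to the adjusted p on quantile-normalized values, and no share of all genes is given for either of these counts.

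**Figure D2:**
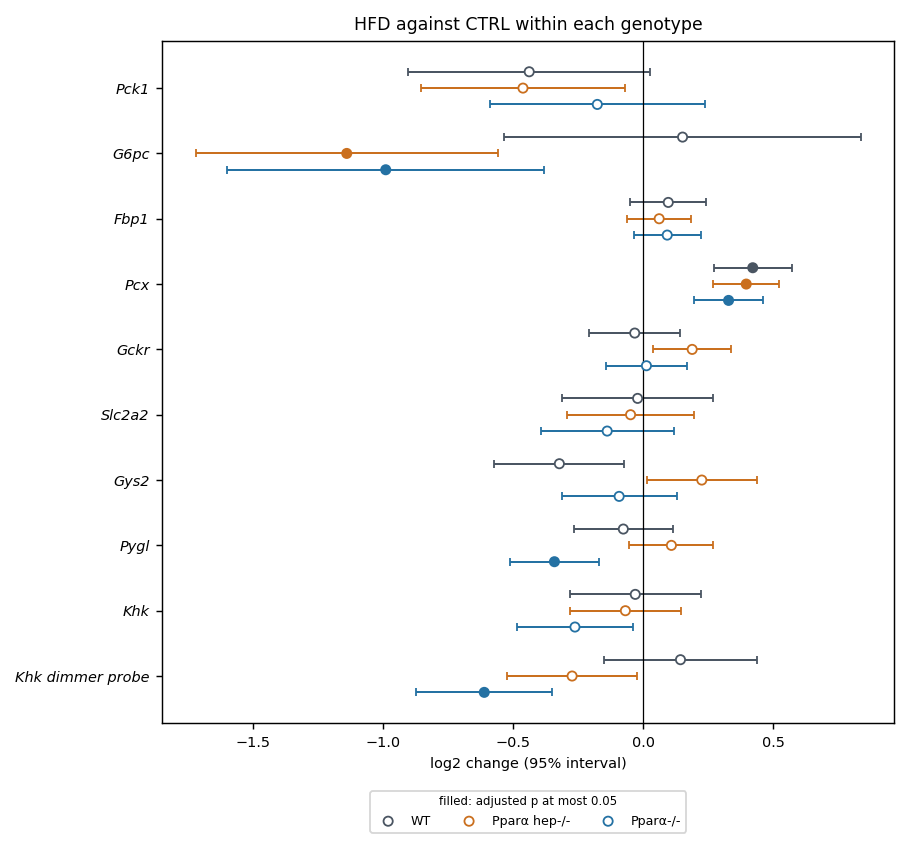
Fitted log2 change, HFD against CTRL, of each probe in WT, Pparα hep-/- and Pparα-/- mice, with its 95% interval (8 mice per group). Filled points passed an adjusted p of 0.05, as *Pcx* did in all 3 genotypes and *G6pc* in the 2 deletions.

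*Pcx* was the one gene that rose on the HFD in every genotype. WT CTRL mice ranged from 15.14 to 15.64 (median 15.31) and WT HFD mice from 15.58 to 16.03 (15.80). Pparα hep-/- mice ranged from 15.24 to 15.70 (15.45) on CTRL and from 15.67 to 16.20 (15.81) on the HFD, and Pparα-/- mice from 15.27 to 15.74 (15.56) and from 15.65 to 15.96 (15.93). In each genotype the HFD mice were high, all 8 of 8 above the mean of their CTRL group, though the highest CTRL mouse overlapped the lowest HFD mouse. The rise was 0.42 ± 0.07 in WT (1.34-fold, adjusted p = 7.42e-05), 0.40 ± 0.06 in Pparα hep-/- (1.32-fold, 1.88e-05) and 0.33 ± 0.07 in Pparα-/- mice (1.26-fold, 0.000317). Within the wash batches the change lay between 0.29 and 0.47 in all 3 genotypes. On the processed signals the Pparα-/- rise was 0.13 and not called (0.147). No difference between genotypes in *Pcx* was called on either diet, except that without array weights Pparα-/- CTRL mice were called above WT CTRL mice (0.20, adjusted p = 0.0321, beside 0.18 and 0.062 with them), and the HFD effect differed between genotypes by -0.09 at most in size (95% interval -0.29 to 0.11, Pparα-/- minus WT). The group order reflected this, with the 3 HFD groups on top. The step from WT HFD down to Pparα-/- CTRL, 0.23, was larger than the SD of either group, and the other neighbours in the order lay within it.

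*G6pc*, which frees glucose from glucose-6-phosphate at the end of both gluconeogenesis and glycogen breakdown, varied most, over 2.00 log2 units between the highest and lowest group mean. On CTRL, WT mice ranged from 12.66 to 15.36 (median 14.82), Pparα hep-/- mice from 13.72 to 15.90 (15.22) and Pparα-/- mice from 13.03 to 15.60 (14.24). On the HFD, WT mice ranged from 13.41 to 15.07 (14.67), Pparα hep-/- mice from 13.41 to 15.15 (14.44) and Pparα-/- mice from 11.62 to 14.49 (13.15). All 6 groups overlapped, and mice of 1 group differed by 1.66 to 2.87 log2 units, so that the highest mouse of the lowest group passed the median of the Pparα hep-/- HFD mice.

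On the HFD, the level of *G6pc* in Pparα hep-/- mice fell by 1.14 ± 0.29 (2.21-fold, adjusted p = 0.00409), and that in Pparα-/- mice by 0.99 ± 0.30 (1.99-fold, 0.0132), with 7 of 8 mice below the CTRL mean in each. In WT mice the change was 0.15 (95% interval -0.54 to 0.84, adjusted p = 0.823). The effects in the 2 deletions differed from that in WT by -1.29 and -1.14, with adjusted p of 0.0544 and 0.0822. The first was called on the processed signals (0.0365), with the filter at all 8 arrays (0.0421) without the 5 arrays of low weight (0.0361) and without WT HFD mice 1 and 2 (0.0348), while without array weights its adjusted p was 0.41. The fall in Pparα hep-/- mice was similar in size within both wash batches (-1.19 and -1.09), but neither batch alone called it (0.122 and 0.109). Without array weights it was -0.96 and not called (0.128), and without the wash term -0.92 and not called (0.0511). In Pparα-/- mice the fall was -1.33 and -0.63 within the batches, not called in either alone (0.0586 and 0.335).

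Pparα-/- HFD mice had less *G6pc* than WT HFD mice, by -1.59 ± 0.30 (3.01-fold, adjusted p = 2.13e-05, 7 of 8 mice below the WT mean). This held at -1.57 and -1.61 within the batches, and every alternative processing and each batch alone kept the call. Against Pparα hep-/- mice they were lower by -1.18 ± 0.28 (2.27-fold, 0.000861), and on CTRL by -1.33 ± 0.31 (2.52-fold, 0.000915). Pparα hep-/- CTRL mice were above WT CTRL mice by 0.89 ± 0.33 (1.85-fold, 0.0436), a call that was lost under 5 of the alternatives that kept both batches (adjusted p up to 0.195). It rested on 6 of 8 mice above the WT mean. Pparα-/- CTRL against WT CTRL was -0.45 (95% interval -1.14 to 0.25, adjusted p = 0.34).

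*Pck1*, the enzyme most often taken as the marker of gluconeogenic transcription, had no call in any of the 12 comparisons. WT mice ranged from 16.69 to 17.31 (median 17.18) on CTRL and from 15.63 to 17.27 (16.78) on the HFD, Pparα hep-/- mice from 16.44 to 17.23 (16.91) and from 15.38 to 17.08 (16.20), and Pparα-/- mice from 16.10 to 17.30 (16.96) and from 15.80 to 17.19 (16.83). The HFD groups spread further down than the CTRL groups and overlapped them widely. The HFD change was -0.44 in WT (95% interval -0.91 to 0.03, adjusted p = 0.195), -0.46 in Pparα hep-/- (-0.86 to -0.07, 0.0869) and -0.18 in Pparα-/- mice (-0.59 to 0.24, 0.57), with 6, 6 and 4 of 8 mice below the CTRL mean. Falls of up to 0.86 to 0.91 log2 units in the first 2 genotypes thus lie inside these intervals. The fit on the processed signals called the Pparα hep-/- fall (-0.67, adjusted p = 0.0198).

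*Fbp1* had the smallest of the called differences among the 9 genes. The 8 Pparα-/- CTRL mice sat between 17.33 and 17.49 (median 17.41), WT CTRL mice between 17.40 and 17.83 (17.50) and Pparα hep-/- CTRL mice between 17.50 and 17.81 (17.73). On the HFD the ranges were 17.27 to 17.74 (17.57), 17.31 to 17.80 (17.58) and 17.46 to 17.94 (17.68) in the same order of genotypes. Pparα-/- and Pparα hep-/- mice did not overlap on CTRL, the only such gene of the 9 in that comparison (4.78% of all genes did not overlap). The difference was -0.25 ± 0.07 (1.19-fold, adjusted p = 0.00296) on CTRL and -0.22 ± 0.06 (1.17-fold, 0.00306) on the HFD. Within the batches it was -0.11 and -0.37 on CTRL and -0.21 and -0.27 on the HFD, and on the processed signals the CTRL difference was -0.06 and not called (0.627). Without array weights the HFD difference was -0.17 and not called (0.0836). Neither deletion was called against WT, but the processed signals called Pparα-/- below WT on the HFD (-0.35, 5.88e-05), and without the wash term Pparα hep-/- was called above WT on CTRL (0.20, 0.0398).

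**Figure D3:**
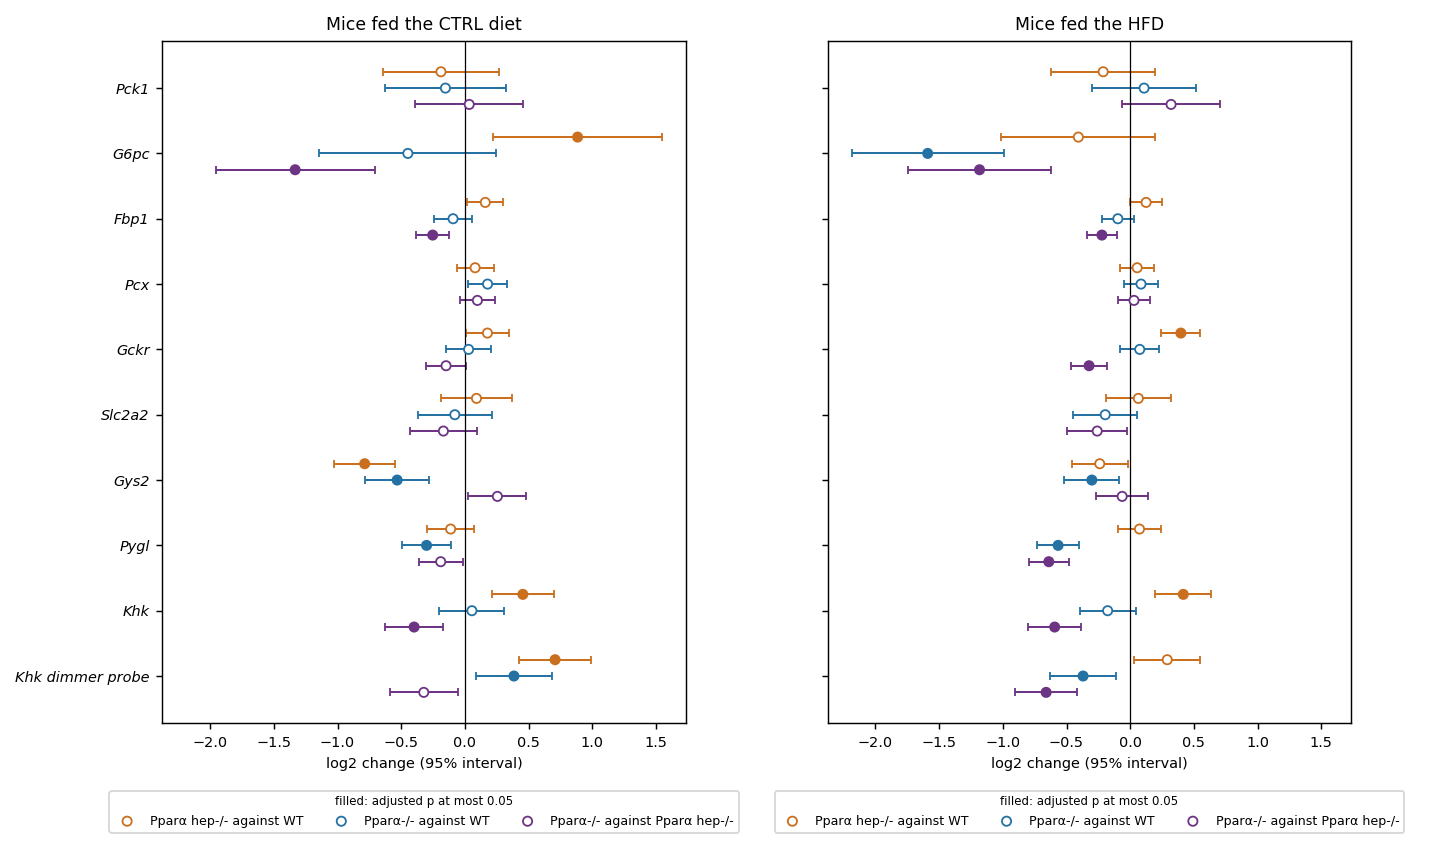
Fitted log2 difference between genotypes for each probe on CTRL (left) and on the HFD (right), with its 95% interval (8 mice per group, filled where the adjusted p was at most 0.05). Filled points for Pparα-/- against Pparα hep-/- all lie to the left of 0, and *Gys2* lies left of 0 in both deletions against WT on CTRL.

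*Slc2a2*, which encodes the carrier GLUT2, had no call in 12 comparisons. It was measured by a probe that spans an intron (mm9 chr3:28625253-28625961, plus strand), shown because it lies in coding sequence and so reads the spliced message.
*Slc2a2* probe: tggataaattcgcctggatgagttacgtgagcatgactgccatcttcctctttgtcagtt

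The 6 group means of *Slc2a2* lay within 0.27 log2 units. WT mice ranged from 11.15 to 12.33 (median 12.21) on CTRL and from 10.72 to 12.30 (12.12) on the HFD, Pparα hep-/- mice from 11.08 to 12.41 (12.20) and from 12.00 to 12.34 (12.15), and Pparα-/- mice from 11.30 to 12.29 (12.01) and from 11.40 to 12.28 (11.87). All groups overlapped, with the low ends set by a few mice, Pparα hep-/- CTRL mouse 1 among them. The difference farthest from 0 was Pparα-/- against Pparα hep-/- on the HFD, -0.26 (95% interval -0.50 to -0.02, adjusted p = 0.0896). Without the 5 arrays of low weight this comparison and Pparα-/- against WT on the HFD were called (0.0381 and 0.0315), as they were without WT HFD mice 1 and 2 (0.0491 and 0.0227).

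*Gckr* was highest in Pparα hep-/- HFD mice. These ranged from 15.87 to 16.21 (median 16.12), WT HFD mice from 15.28 to 15.96 (15.66) and Pparα-/- HFD mice from 15.60 to 15.97 (15.81). On CTRL the ranges were 15.70 to 16.13 (15.86), 15.22 to 15.86 (15.77) and 15.53 to 16.22 (15.75). The 8 Pparα hep-/- HFD mice all lay above the mean of the WT HFD mice, and 8 of 8 Pparα-/- HFD mice lay below the mean of the Pparα hep-/- HFD mice, with a narrow overlap in both cases. Pparα hep-/- exceeded WT on the HFD by 0.40 ± 0.08 (1.32-fold, adjusted p = 0.000127), with 0.43 and 0.35 within the batches. Pparα-/- was lower than Pparα hep-/- by -0.32 ± 0.07 (1.25-fold, 0.000401), with -0.30 and -0.38. Both calls were kept under every alternative. Pparα-/- against WT was 0.08 on the HFD (95% interval -0.08 to 0.23, adjusted p = 0.442). The CTRL difference between Pparα hep-/- and WT was 0.18 (0.01 to 0.35, 0.124), and the HFD effects were not shown to differ (0.22, adjusted p = 0.211). Within Pparα hep-/- mice the HFD change was 0.19 (0.04 to 0.34, 7 of 8 mice above the CTRL mean), which was not called (0.0647) except without the 5 arrays of low weight (0.0495).

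*Gys2*, the liver isoform of glycogen synthase, was highest in WT CTRL mice and lower in both deletions. WT CTRL mice ranged from 14.87 to 15.91 (median 15.32), Pparα hep-/- CTRL mice from 14.23 to 14.90 (14.54) and Pparα-/- CTRL mice from 14.14 to 15.07 (14.91). On the HFD the ranges were 14.43 to 15.39 (14.99), 14.67 to 14.90 (14.83) and 14.26 to 15.08 (14.74). On CTRL all 8 mice of each deletion lay under the WT mean, with an overlap of the ranges that was narrow for Pparα hep-/- mice. The difference from WT was -0.79 ± 0.12 in Pparα hep-/- (1.72-fold, adjusted p = 3.51e-06) and -0.53 ± 0.13 in Pparα-/- mice (1.45-fold, 0.000781). Within the batches these were -0.89 and -0.65, and -0.52 and -0.50, and every alternative kept both calls. Both comparisons use the same 8 WT mice.

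On the HFD the difference in *Gys2* from WT was -0.24 ± 0.11 in Pparα hep-/- mice, which was not called (95% interval -0.46 to -0.02, adjusted p = 0.0998) except on the processed signals (0.00678), without the 5 arrays of low weight (0.0488) and without WT HFD mice 1 and 2 (0.0491). It was -0.30 ± 0.11 in Pparα-/- mice (1.23-fold, 0.02, with -0.45 and -0.17 within the batches and 0.113 without array weights). The HFD change was -0.32 in WT (95% interval -0.57 to -0.07, adjusted p = 0.0614) and 0.23 in Pparα hep-/- mice (0.01 to 0.44, 0.124), neither called, and the 2 effects differed by 0.55 ± 0.16 (adjusted p = 0.0249, 0.66 and 0.41 within the batches). That difference was not called under 5 alternatives that kept both batches, with adjusted p from 0.0537 to 0.116. In Pparα-/- mice the HFD change was -0.09 (-0.31 to 0.13, 0.58), which was not shown to differ from that of WT (0.23, -0.10 to 0.56, 0.366).

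*Pygl*, the liver isoform of glycogen phosphorylase, was lowest in Pparα-/- HFD mice. They ranged from 14.59 to 15.03 (median 14.80), WT HFD mice from 14.88 to 15.51 (15.33) and Pparα hep-/- HFD mice from 15.21 to 15.51 (15.43). On CTRL, Pparα-/- mice ranged from 14.82 to 15.53 (15.10), WT mice from 14.72 to 15.63 (15.46) and Pparα hep-/- mice from 14.96 to 15.63 (15.28). Every Pparα-/- HFD mouse lay below every Pparα hep-/- HFD mouse, the only gene of the 9 with no overlap in that comparison (7.04% of all genes). The difference was -0.64 ± 0.08 (1.56-fold, adjusted p = 6.83e-09), with -0.56 and -0.70 within the batches, and against WT HFD mice it was -0.57 ± 0.08 (1.48-fold, 2.66e-07), with -0.37 and -0.73. Both calls held under every alternative.

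The HFD lowered *Pygl* in Pparα-/- mice by -0.34 ± 0.08 (1.27-fold, adjusted p = 0.00253, 8 of 8 mice below the CTRL mean), with -0.24 and -0.44 within the batches. The change was -0.08 in WT (95% interval -0.27 to 0.12, adjusted p = 0.652) and 0.11 in Pparα hep-/- mice (-0.05 to 0.27, 0.362). Pparα-/- minus Pparα hep-/- was -0.45 ± 0.12 (adjusted p = 0.0213, -0.48 and -0.49 within the batches), which lost its call without array weights (0.183) and under 3 other settings that kept both batches. Pparα-/- minus WT was not called (-0.27, adjusted p = 0.154, with 0.03 and -0.51 within the batches). On CTRL, Pparα-/- mice were below WT mice by -0.30 ± 0.10 (1.23-fold, 0.0126), a call lost without array weights (-0.18, 0.229). Against Pparα hep-/- CTRL mice they differed by -0.19 (95% interval -0.36 to -0.02, adjusted p = 0.107), which was called with slide as a block (-0.23, 0.048) and without the 5 arrays of low weight (-0.22, 0.0494).

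*Khk* was measured by 2 probes. The bright one lies at mm9 chr5:31233555-31233614, and the dimmer one, at chr5:31229105-31229164, was designed on another *Khk* transcript model and lies in coding sequence. It is shown because the probes differed in the Pparα-/- results. *Khk* makes alternatively spliced forms of different affinity for fructose, and the files do not tell which form a probe reads.
*Khk* dimmer probe: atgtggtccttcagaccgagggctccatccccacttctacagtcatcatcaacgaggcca

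On the bright probe, WT mice ranged from 15.77 to 16.95 (median 16.63) on CTRL and from 15.94 to 16.80 (16.62) on the HFD, Pparα hep-/- mice from 15.87 to 17.34 (17.05) and from 16.69 to 17.19 (17.00), and Pparα-/- mice from 16.47 to 17.02 (16.69) and from 16.27 to 16.79 (16.32). On this probe Pparα hep-/- mice were the high genotype on both diets, with ranges that overlapped WT. They exceeded WT by 0.45 ± 0.12 on CTRL (1.37-fold, adjusted p = 0.0044, 7 of 8 mice above the WT mean) and by 0.42 ± 0.11 on the HFD (1.33-fold, 0.00385, 8 of 8). Within the batches the difference was 0.25 and 0.59 on CTRL and 0.32 and 0.48 on the HFD, and on the processed signals the HFD difference was 0.25 and not called (0.108).

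Pparα-/- mice had less *Khk* than Pparα hep-/- mice, by -0.40 ± 0.11 on CTRL (1.32-fold, adjusted p = 0.00696) and by -0.59 ± 0.10 on the HFD (1.51-fold, 9.97e-06, 8 of 8 mice below the Pparα hep-/- mean). The HFD difference was -0.58 and -0.63 within the batches and was called under every alternative. The CTRL difference was not called without array weights (-0.25, 0.301) or on the processed signals (-0.31, 0.0768). Against WT, Pparα-/- mice were not called on either diet (0.06 on CTRL, 95% interval -0.20 to 0.31, and -0.18 on the HFD, -0.40 to 0.04).

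The dimmer probe gave the same sign and a call for Pparα hep-/- above WT on CTRL (0.71 ± 0.14, 1.63-fold, adjusted p = 0.000213) and for Pparα-/- below Pparα hep-/- on the HFD (-0.66 ± 0.12, 1.58-fold, 2.4e-05). It had the same sign but no call for the other 2 differences called on the bright probe, Pparα hep-/- against WT on the HFD (0.29, 95% interval 0.03 to 0.55, adjusted p = 0.09) and Pparα-/- against Pparα hep-/- on CTRL (-0.32, -0.59 to -0.05, 0.0709), the last of which was called without the 5 arrays of low weight (0.0163). Its values ranged from 8.16 to 10.07 (median 9.53) in WT CTRL mice, from 8.67 to 10.62 (10.26) in Pparα hep-/- CTRL mice and from 9.52 to 10.22 (9.98) in Pparα-/- CTRL mice. On the HFD the ranges were 9.35 to 10.02 (9.63), 9.65 to 10.14 (10.07) and 9.16 to 9.77 (9.31). Unlike the bright probe, it was called for a fall on the HFD in Pparα-/- mice (-0.61 ± 0.13, 1.53-fold, adjusted p = 0.000596, 8 of 8 mice below the CTRL mean, -0.71 and -0.54 within the batches). The bright probe changed there by -0.26 (95% interval -0.49 to -0.04, adjusted p = 0.0765). In Pparα hep-/- mice the dimmer probe changed on the HFD by -0.27 (95% interval -0.52 to -0.02, adjusted p = 0.111). That was called without the 5 arrays of low weight (-0.31, 0.0333). The dimmer probe also differed between Pparα-/- and WT mice, upward on CTRL (0.39 ± 0.15, adjusted p = 0.0399) and downward on the HFD (-0.37 ± 0.13, 0.016), so that its HFD effect was lower in Pparα-/- than in WT mice by -0.75 ± 0.20 (0.00754). That last call was lost without array weights (-0.83, 0.0659), as was the HFD difference (-0.25, 0.349), and the CTRL difference was larger without array weights (0.58, 0.0194) and lost its call under 4 settings that kept both batches, the 5 arrays of low weight left out among them (0.31, 0.0655). The difference between the 2 probes was not tested. With the mean of both probes in place of the bright one, the calls of the bright probe were kept, and 3 were added, the HFD effect in Pparα-/- mice (-0.44, adjusted p = 0.00461), Pparα-/- against WT on the HFD (-0.27, 0.0457) and the difference of the HFD effects of Pparα-/- and WT mice (-0.49, 0.0492). The processed signals of the bright probe also called the first (-0.54, 0.00133) and the second (-0.34, 0.0165).

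Across the 9 genes and 12 comparisons, counting the brightest probe of each gene, *G6pc* was called in 6, *Pygl* in 5, *Gys2* and *Khk* in 4 each, *Pcx* in 3, *Fbp1* and *Gckr* in 2 each and *Pck1* and *Slc2a2* in 0. In the order of the 6 group means, most neighbours lay closer together than the larger of their SDs. The exceptions were Pparα-/- CTRL above Pparα-/- HFD for *G6pc* (1.06 against an SD of 0.96) and for *Pygl* (0.35 against 0.25), WT HFD above Pparα-/- CTRL for *Pcx*, Pparα hep-/- HFD above CTRL for *Gckr* (0.18 against 0.15) and Pparα-/- CTRL above WT HFD for the dimmer *Khk* probe (0.33 against 0.23).

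Other genes of the same pathways were taken from a list of 83 names, of which 79 were tested. On the HFD, Pparα-/- mice had 7 of the 79 higher and 30 lower than Pparα hep-/- mice (median change -0.16, beside 0.01 over all genes), where 16.9% of all genes were higher and 15% lower. Against WT mice they had 13 higher and 26 lower (24.1% and 23.7% of all genes), and Pparα hep-/- mice had 22 higher and 9 lower than WT mice (14.6% and 14%). On CTRL the counts in the same order were 5 higher and 24 lower (13.2% and 13.4%), 10 and 21 (16.9% and 18.4%), and 15 and 10 (12.3% and 12.9%). Without array weights the HFD counts fell to 3 and 18, 7 and 15, and 11 and 3, and without the 5 arrays of low weight they were 7 and 32, 15 and 26, and 23 and 11. By class, Pparα-/- against Pparα hep-/- mice on the HFD had 1 higher and 5 lower of 13 genes of gluconeogenesis and pyruvate, 1 and 2 of 4 of glycerol entry, 1 and 7 of 14 of glycolysis, 0 and 5 of 20 of glycogen, 1 and 5 of 9 of fructose, sorbitol and galactose, 1 and 2 of 5 sugar transporters and 2 and 4 of 14 regulators.

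**Figure D4:**
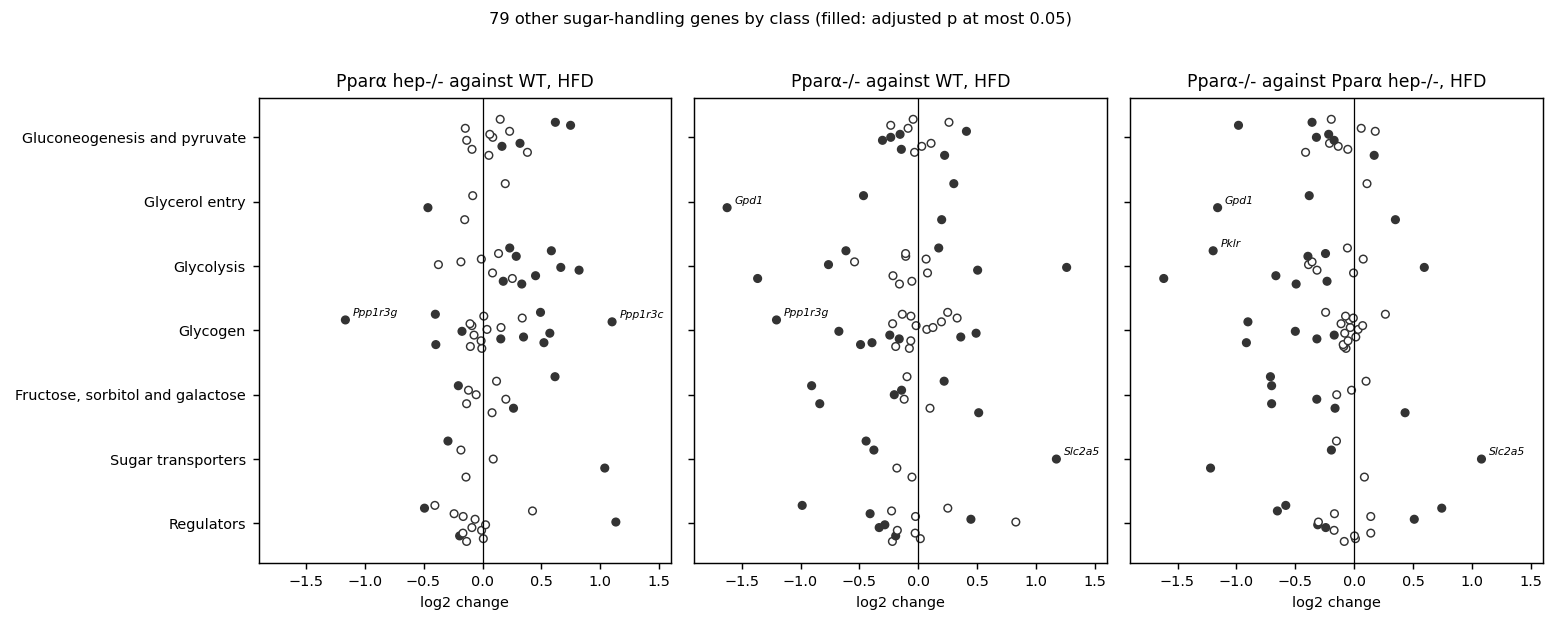
Fitted log2 difference of each of the 79 other sugar-handling genes (points, spread vertically within a class for sight only) in the 3 comparisons of genotypes on the HFD, filled where the adjusted p was at most 0.05. More filled points lie left of 0 (30) than right (7) in Pparα-/- against Pparα hep-/- mice.

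Liver pyruvate kinase (*Pklr*) was lower in Pparα-/- than in Pparα hep-/- HFD mice by -1.198 ± 0.19 (adjusted p = 2.77e-06), beside the lower *Khk* there. Glycerol-3-phosphate dehydrogenase (*Gpd1*), through which glycerol enters gluconeogenesis, was lower in Pparα-/- than in WT mice by -1.21 ± 0.14 on CTRL (2.11e-09) and -1.62 ± 0.12 on the HFD (3.05e-15). The fructose carrier gene *Slc2a5* was higher there by 1.47 ± 0.23 (1e-06) and 1.17 ± 0.19 (2.76e-06), where the bright *Khk* probe was not called and the dimmer one was called upward on CTRL and downward on the HFD.

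Among genes that steer glycogen, *Ppp1r3g*, a subunit that brings protein phosphatase 1 to glycogen, fell on the HFD by -1.13 ± 0.40 in WT (adjusted p = 0.0408, and 0.0971 without the 5 arrays of low weight or 0.099 without WT HFD mice 1 and 2), -2.46 ± 0.34 in Pparα hep-/- (1.76e-06) and -1.57 ± 0.35 in Pparα-/- mice (0.00111). *Ppp1r3b*, another such subunit, fell on the HFD in Pparα-/- mice by -0.91 ± 0.14 (1.01e-05), in the same group in which *Pygl* fell. *Ppp1r3c*, of the same family, exceeded its WT level in Pparα hep-/- mice by 1.02 ± 0.34 on CTRL (0.0231, and 0.0656 without array weights) and 1.099 ± 0.31 on the HFD (0.00633). The mitochondrial counterpart of *Pck1*, *Pck2*, was lower in Pparα-/- than in Pparα hep-/- CTRL mice by -1.22 ± 0.14 (1.51e-09), where *Pck1* differed by 0.03 (95% interval -0.39 to 0.46). Its HFD effect in Pparα hep-/- mice was 0.64 ± 0.20 above that in WT (0.0319), a call lost without array weights (0.53, 0.404), and in Pparα-/- mice 0.88 ± 0.20 above it (0.00276, and 0.0458 without array weights).

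Mouse by mouse, after the group means and the wash batch were removed, some of the 9 genes moved together over the 48 arrays. The highest correlations were between *Pygl* and *Khk* (r = 0.80), *Gckr* and *Pygl* (0.76), *Slc2a2* and *Khk* (0.76) and *Gckr* and *Khk* (0.72), which were the only 4 of 36 pairs over 0.7, and the median pair had 0.19. *Pck1* ran the other way to *Pygl* (-0.46) and *Gckr* (-0.43), and *G6pc* had its highest value with *Khk* (0.32). The arrays of low weight are among the 48 and share low values of several of these genes, and their part in the correlations was not tested.

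**Figure D5:**
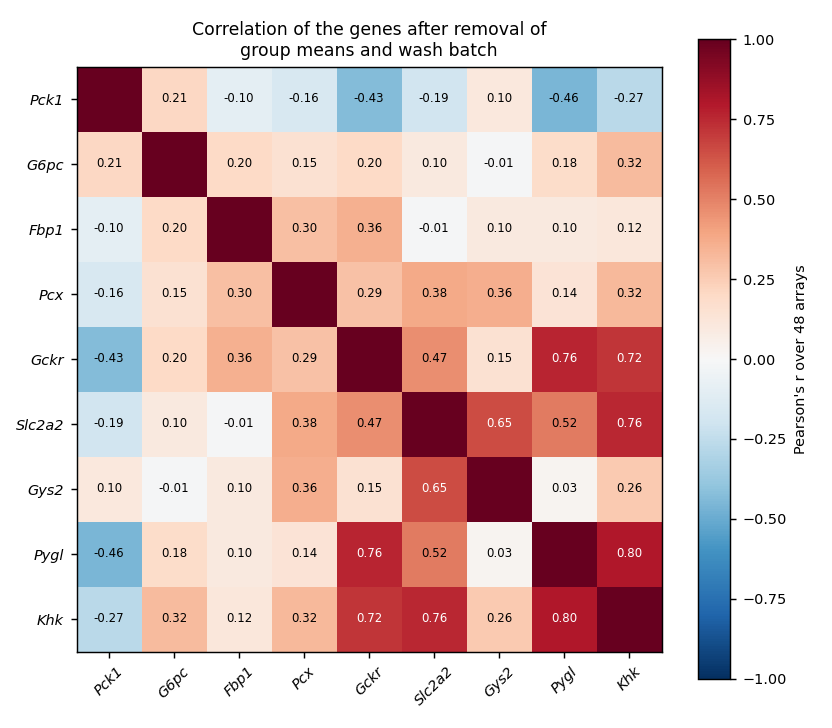
Pearson correlation between the 9 genes (brightest probe each) over 48 arrays, after removal of group means and wash batch. *Gckr*, *Slc2a2*, *Pygl* and *Khk* form the block of high values (0.47 to 0.80), and *Pck1* is negative with *Gckr* and *Pygl*.

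Likeness to other genes was read with only the wash batch removed. Differences between the 6 groups therefore stayed in, and these r values do not compare with those above. Over the 14446 genes that could be compared, the one most like *Khk* was *Pklr* (r = 0.94, n = 48 arrays), then *Hcn3* (0.92) and *Thrsp* (0.85). *Pcx* was most like *Cd59a* (0.85), *Acat1* (0.84) and *Msra* (0.83), *Gys2* like *Pcsk4* (0.83) and *Lrp4* (0.81), and *Pygl* like *Mrps14* (0.82) and again *Hcn3* (0.80). *Gckr* was most like *Leap2* (0.79), *Slc2a2* like the UDP-glucose enzyme gene *Ugp2* (0.79), *Fbp1* like *Cox14* (0.75), *Pck1* like *Sp110* (0.74) and *G6pc* like *Scd3* (0.74).

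The tissue markers bear on results in bulk liver, where fewer cells of a type and less RNA per cell cannot be told apart. All 7 hepatocyte markers were tested, and their mean log2 level ran from 16.25 to 16.64 in WT CTRL mice (median 16.47), from 15.49 to 16.34 (16.11) in WT HFD mice, from 16.13 to 16.57 (16.40) and 16.02 to 16.27 (16.19) in Pparα hep-/- CTRL and HFD mice, and from 15.81 to 16.10 (15.995) and 15.67 to 15.90 (15.78) in Pparα-/- CTRL and HFD mice. In Pparα-/- against WT on the HFD 3 of the 7 were lower (*Apoa1*, *Cyp3a11* and *Cps1*, where 23.7% of all genes were lower). In Pparα-/- against Pparα hep-/- on the HFD 1 was lower (*Cyp3a11*, 15%). In the HFD effect of Pparα-/- mice *Apoa1* was higher and *Tat* and *Cps1* were lower (median change -0.015, with 13.8% of all genes higher and 12.6% lower). Kupffer cell and macrophage markers were higher, with 5 of 5 tested called in Pparα-/- against WT on the HFD (median change 1.201, 24.1% of all genes higher) and in the HFD effect of Pparα-/- mice (0.88, 13.8%). In Pparα hep-/- against WT on the HFD 4 of 5 were higher (14.6%), and in Pparα-/- against Pparα hep-/- on the HFD 1 of 5 (16.9%). All 4 stellate cell markers were higher in the first 2 of these comparisons, as were *S100a8* and *S100a9* of 3 neutrophil markers. Of 4 endothelial markers, 2 were higher in both, and *Clec4g* was lower in the first. The mean log2 level of cholangiocyte markers reached 8.72 in a WT CTRL mouse (group median 6.91) and 8.88 in a Pparα hep-/- CTRL mouse (6.68). The part of all these markers in the lower *G6pc*, *Gys2* and *Pygl* of Pparα-/- mice was not tested. Of 4 adipocyte markers, *Adipoq* and *Plin1* did not pass the filter on dim probes, while *Lep* and *Cidec* did, and *Cidec*, which hepatocytes that store fat also express, was called higher on the HFD in all 3 genotypes. The mean of the last 2 had medians of 8.63 in WT CTRL and 9.82 in WT HFD mice, 8.73 and 9.96 in Pparα hep-/- mice, and 7.59 and 9.15 in Pparα-/- mice, and its part in the HFD changes was not tested.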

How the data were processed

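Labels put the 48 samples in 6 groups of 8 by genotype and diet. Per the methods and the file headers, the authors hybridised Cy3-labelled liver RNA to 1-colour Agilent arrays and scanned them with Agilent Feature Extraction (10.10.1.1 in the headers and labels). The deposited scanner files give the median intensity of each spot, with its flags, and a deposited table gives the authors' normalized log2 values, which correlated at 0.999 or more with those used here and served as an alternative.

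Here, intensities were taken to log2, outlier spots left out and spots of a probe averaged. The 33323 probes kept were well above background in 4 or more of the 8 arrays of some group, and they were quantile normalized, without background subtraction, which can shrink changes of dim probes. limma 3.58.1 in R 4.3.3 fitted group means and the wash batch with array weights, and p-values were Benjamini-Hochberg adjusted over all probes for each comparison. The 195 missing values were left missing. A gene is its brightest probe, and other genes named are, by rule, the 5 called ones with the largest change in a comparison and the closest 3 in likeness, and 1 gene so named is not reported here. The number of arrays limits the precision. Mice are separate animals by the labels. Alternatives were the scanner's processed signal scaled to the 75th percentile, normexp, no weights, no wash term, slide or replicate number as a block, other filters, the authors' table, the mean of the probes of a gene, each wash batch alone and, added after seeing the data, no arrays of weight under 0.5, or no WT HFD mice 1 and 2. The code was checked on simulated data. The members and gene lists were chosen with earlier results of these data known. Probe coordinates are mm9, as in the files.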

Additional observations from a re-analysis of the deposited data

Results flagged for a closer look

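Of the 60 sets of 8 mice (10 probes in 6 groups), 10 had a mouse whose gap to the nearest other passed Dixon's 95% critical value, where chance alone gives about 1 in 20. Pparα hep-/- CTRL mouse 1, the array of lowest weight, stood low for *Slc2a2* (11.08, next 12.09), *Khk* (15.87, next 17.00) and the dimmer *Khk* probe (8.67, next 10.05). Pparα-/- CTRL mouse 3, also of low weight, stood low for *Slc2a2* (11.30) and *Gys2* (14.14). The others were *Pck1* in Pparα-/- HFD mouse 3 (15.80, low), *Fbp1* in WT CTRL mouse 8 (17.83, high), *Pcx* in Pparα hep-/- HFD mouse 8 (16.20, high) and Pparα-/- CTRL mouse 1 (15.27, low), and the dimmer *Khk* probe in Pparα-/- CTRL mouse 2 (9.52, low).

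HFD effects that differed between genotypes, by the test of the difference in limma, were those of *Gys2* (0.55, Pparα hep-/- minus WT), *Pygl* (-0.45, Pparα-/- minus Pparα hep-/-) and the dimmer *Khk* probe (-0.75, Pparα-/- minus WT).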

How the results depend on the processing

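Of 32 calls over the 10 probes, 11 were kept under every alternative and 18 under every one that used both wash batches. Alternatives moved the number of the 9 genes called by more than 1.5 times as follows. For the HFD effect in WT it was 0 in wash batch 2 alone (1 in the report), in Pparα hep-/- mice 1 without weights, without the wash term and in either batch alone (2), and in Pparα-/- mice 0 in batch 1 alone (3). On CTRL it was 1 in batch 1 alone for Pparα hep-/- against WT (3), 1 without the filter and in batch 2 alone for Pparα-/- against WT (2), and 1 on the processed signals and 0 in batch 1 alone for Pparα-/- against Pparα hep-/- (3). On the HFD it was 1 in batch 1 alone for Pparα hep-/- against WT (2), 5 on the processed signals for Pparα-/- against WT (3) and 3 in batch 1 alone for Pparα-/- against Pparα hep-/- (5). Among differences of HFD effects, Pparα hep-/- minus WT (1) gave 0 without weights, without the wash term, with slide as a block, without the filter and in either batch alone, and 2 with the filter at all 8 arrays, without the 5 arrays of low weight or without WT HFD mice 1 and 2 (*G6pc* was added), and on the processed signals its 1 call was *G6pc* in place of *Gys2*. Pparα-/- minus WT (0) gave 1 on the processed signals, and Pparα-/- minus Pparα hep-/- (1) gave 0 on the processed signals, without weights, without the wash term, without the filter and in either batch. Counts also moved by less than that, or kept their size with another gene. On the HFD against CTRL, Pparα hep-/- mice had 3 on the processed signals (*Pck1* added) and without the 5 arrays (*Gckr*), and Pparα-/- mice 4 on the processed signals and 2 in batch 2 alone. On CTRL, Pparα hep-/- against WT had 2 on the processed signals, without weights, with slide as a block, without the filter and in batch 2 alone (*G6pc* lost in each), and without the wash term *Fbp1* took the place of *G6pc*, Pparα-/- against WT had *Pcx* in place of *Pygl* without weights, and Pparα-/- against Pparα hep-/- had 2 without weights and 4 with slide as a block and without the 5 arrays. On the HFD, Pparα hep-/- against WT had *Gys2* in place of *Khk* on the processed signals, and 3 without the 5 arrays or without WT HFD mice 1 and 2, Pparα-/- against WT had 2 without weights, without the filter and in batch 2 alone, and 4 without the 5 arrays or the WT HFD mice, and Pparα-/- against Pparα hep-/- had 4 without weights and 6 without the 5 arrays or the WT HFD mice. One value turned its sign and was called, *Fbp1* on the HFD in Pparα-/- mice, -0.33 on the processed signals (adjusted p = 0.00091) beside 0.09, and the cause was not tested. Fits on 1 batch hold fewer mice.

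Over all probes, calls fell without array weights from 6735 to 1270 (HFD, Pparα hep-/-), 8893 to 3244 (Pparα hep-/- against WT, HFD), 8273 to 4034, 10188 to 6047, 3472 to 298, 4781 to 1740 and 1139 to 110. The processed signals lowered the share of calls that were higher from 46.8% to 34.6% (HFD, Pparα hep-/-), 49.7% to 37.8% (Pparα hep-/- against WT, HFD), 44.4% to 31.4% and 48.3% to 34.5% (HFD effects minus WT). Between same-numbered mice of 2 groups, r ran from -0.446 to 0.694 after group means and the wash batch were removed. Mice of different numbers were not compared, so these values cannot show whether replicate numbers pair the mice. With replicate numbers as a block the dimmer *Khk* probe in Pparα-/- against WT on CTRL (0.39, adjusted p = 0.0545) lost its call, and no other call of the 10 probes changed. The all-probe count for Pparα hep-/- minus WT fell from 3472 to 2276.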

Other observations

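*Khk* and *Gckr* lie 396 kb apart on mouse chromosome 5, and on the HFD both stood higher in Pparα hep-/- mice than in WT. Of 21 other genes tested between their probes, 5 were higher there (*Mpv17*, *Snx17*, *Cgref1*, *Tcf23* and *Zfp513*) and 3 lower (14.6% and 14% of all genes), and on CTRL 1 was higher and 7 were lower (12.3% and 12.9%). The same 5 were among 6 higher, beside 6 lower, in Pparα-/- against WT mice on the HFD (24.1% and 23.7%), where neither *Khk* (bright probe) nor *Gckr* was called. In Pparα-/- against Pparα hep-/- mice on the HFD, where *Khk* and *Gckr* were both lower, 2 of the 21 were higher and 2 lower (16.9% and 15%).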
